A study of Mus musculus with 76 samples.

Results

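The genes described here encode readers of CpG islands and methyltransferases of histone H3 lysine 4 (H3K4), the machinery proposed to act at CpG islands that lie away from promoters. They were chosen by name and function, with earlier results of these data known although the rule uses no measured value, and make up 10 of the 56923 gene IDs in the count files: Cxxc1, Kdm2a, Kdm2b, Kmt2a, Kmt2b, Kmt2c, Kmt2d, Setd1a, Setd1b and Wdr5. All 10 passed the filter on low counts in every comparison, and their lowest count in any sample was 231 reads, for Setd1a.

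The study profiled embryonic mouse diencephalon, the part of the forebrain that forms thalamus and hypothalamus, at E11.5 and E17.5, counted in embryonic days. In the hs754-humanized line the mouse sequence of an enhancer on chromosome 13 was replaced by its human ortholog, and embryos from homozygous humanized crosses were compared with embryos from homozygous wild type crosses, all C57BL/6J. Tissue was pooled within 1 litter, with 6 embryos in each E11.5 sample and 3 in each E17.5 sample, so no litter held both genotypes. The p-values measure only the spread between such pools. Each genotype and stage had 4 RNA-seq samples, and for each of H3K4me3, H3K27ac and H3K27me3 a genotype had 2 ChIP-seq peak lists at the younger stage and 3 at the older one, where CTCF was also profiled with 3.

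CpG islands are stretches of DNA rich in CpG dinucleotides that mostly stay unmethylated and lie at many promoters. Proteins with a ZF-CxxC domain bind unmethylated CpGs and bring enzymes that write or remove histone methylation. H3K4 is methylated by COMPASS-type complexes, each built around a SET domain methyltransferase and a shared core that includes WDR5, and its trimethylation (H3K4me3) marks active promoters. Among the 10 genes, 5 encode ZF-CxxC proteins: Cxxc1 (CFP1, the CpG-binding subunit of the SET1 complexes), Kdm2a and Kdm2b (H3K36 demethylases, of which KDM2B also recruits the variant Polycomb complex PRC1.1), and Kmt2a (MLL1) and Kmt2b (MLL2). The 6 methyltransferase genes are Kmt2a, Kmt2b, Kmt2c, Kmt2d, Setd1a and Setd1b, where SETD1A and SETD1B are the SET1 enzymes of promoters, and KMT2C and KMT2D monomethylate H3K4 at enhancers.

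Reads on genes numbered 16414369 to 24272569 per RNA sample. All 12 diencephalon marker genes were above 1 CPM in each of the 4 groups, with summed levels of 1048 to 1983 CPM, against 32.5 to 85.4 CPM for 4 telencephalon markers and 0.9 to 16 CPM for 5 midbrain and hindbrain markers. One library stood apart before any comparison: in E17.5 wild type replicate 1 the tenth of genes highest in exonic GC content lay 1.80 log2 units above the tenth lowest in GC, relative to its group, where the other 15 libraries lay between -0.68 and 0.68. Wild type results at E17.5 are also given without it where it lay apart from the other 3 samples.

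The promoters of the 10 genes, which include the CpG readers, were themselves mostly rich in CpG. In the 300 bp from 250 bp before to 50 bp after the gene start, 8 of the 10 genes reached both a GC content of 50% and a ratio of observed to expected CpGs of 0.6, against 32.3% of 21757 protein-coding promoters, and 94.4% of promoters held at least 1 CpG. The exceptions were Setd1b, with the lowest ratio (19 CpGs, GC content 68.7%, ratio 0.587), and Kdm2b, with the lowest GC content (9 CpGs, GC content 43.7%, ratio 0.630). This depends on the start taken, since both genes reached both thresholds at a coding start further inside. These were Setd1b 764 bp inside (GC content 63.3%, ratio 0.793) and Kdm2b 485 bp inside (GC content 68.3%, ratio 0.612). Kmt2c had the highest ratio (58 CpGs, GC content 91.0%, ratio 0.990), and its CpG count was at percentile 99.95 of all promoters. The promoters with the highest and the lowest ratio are shown, followed by the outer and the inner start of Kdm2b, which were chosen after their peaks had been seen because the 2 starts differ in CpG content and in chromatin. They were read 5′ to 3′ on the gene's strand from GRCm39 (mm39), with each CpG in capitals. The windows are chr5:25703761-25704060 on the minus strand for Kmt2c, chr5:123280006-123280305 on the plus strand for Setd1b, and chr5:123127837-123128136 and chr5:123038369-123038668 on the minus strand for Kdm2b.
Kmt2c: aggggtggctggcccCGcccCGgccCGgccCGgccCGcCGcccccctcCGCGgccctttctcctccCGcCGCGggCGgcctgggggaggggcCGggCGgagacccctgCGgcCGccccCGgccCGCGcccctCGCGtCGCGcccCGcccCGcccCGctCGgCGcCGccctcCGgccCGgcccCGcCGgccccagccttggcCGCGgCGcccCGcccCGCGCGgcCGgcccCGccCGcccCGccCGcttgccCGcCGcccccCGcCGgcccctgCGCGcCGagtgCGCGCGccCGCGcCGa
Setd1b: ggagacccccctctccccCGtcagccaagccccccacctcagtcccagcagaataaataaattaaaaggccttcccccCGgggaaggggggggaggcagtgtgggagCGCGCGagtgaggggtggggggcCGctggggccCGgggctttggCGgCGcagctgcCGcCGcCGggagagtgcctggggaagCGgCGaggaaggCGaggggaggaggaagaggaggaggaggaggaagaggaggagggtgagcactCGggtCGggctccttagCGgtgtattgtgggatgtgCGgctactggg
Kdm2b outer start: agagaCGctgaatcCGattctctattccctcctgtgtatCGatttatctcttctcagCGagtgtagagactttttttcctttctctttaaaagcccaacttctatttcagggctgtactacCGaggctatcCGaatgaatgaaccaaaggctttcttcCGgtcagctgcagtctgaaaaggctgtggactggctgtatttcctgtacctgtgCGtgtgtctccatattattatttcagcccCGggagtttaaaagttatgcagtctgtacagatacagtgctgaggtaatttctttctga
Kdm2b inner start: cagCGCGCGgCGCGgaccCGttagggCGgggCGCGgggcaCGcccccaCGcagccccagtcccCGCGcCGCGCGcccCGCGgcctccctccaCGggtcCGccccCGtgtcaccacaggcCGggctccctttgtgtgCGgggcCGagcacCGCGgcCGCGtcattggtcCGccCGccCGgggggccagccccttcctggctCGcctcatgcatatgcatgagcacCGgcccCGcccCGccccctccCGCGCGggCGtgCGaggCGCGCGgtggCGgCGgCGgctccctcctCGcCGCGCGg

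Per length, the members spanned a middle to upper range of expression, between percentiles 44.0 (Setd1a) and 80.4 (Kmt2a) of protein-coding genes over the 16 samples. In wild type samples at E11.5, Wdr5 was highest (20.7 ± 2.65 RPKM, SD, n = 4), followed by Cxxc1, Kmt2a, Kmt2b, Kdm2b, Setd1b and Kdm2a (12.8 ± 0.94), whose neighbours in this order overlapped within 1 SD. Kmt2d (10.3 ± 0.80) lay below them, and Setd1a (5.23 ± 0.45) and Kmt2c (4.18 ± 0.90) were lowest and overlapped each other. In humanized samples at E17.5 the order differed: Kmt2a was highest (19.97 ± 2.47), Kmt2c was at 8.74 ± 1.30, and Setd1a was lowest (2.42 ± 0.29). Averaged over the 16 samples, 9 of the 10 genes were above the median of 5.30 RPKM over 14827 protein-coding genes, and Setd1a was below it.

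**Figure D1:**
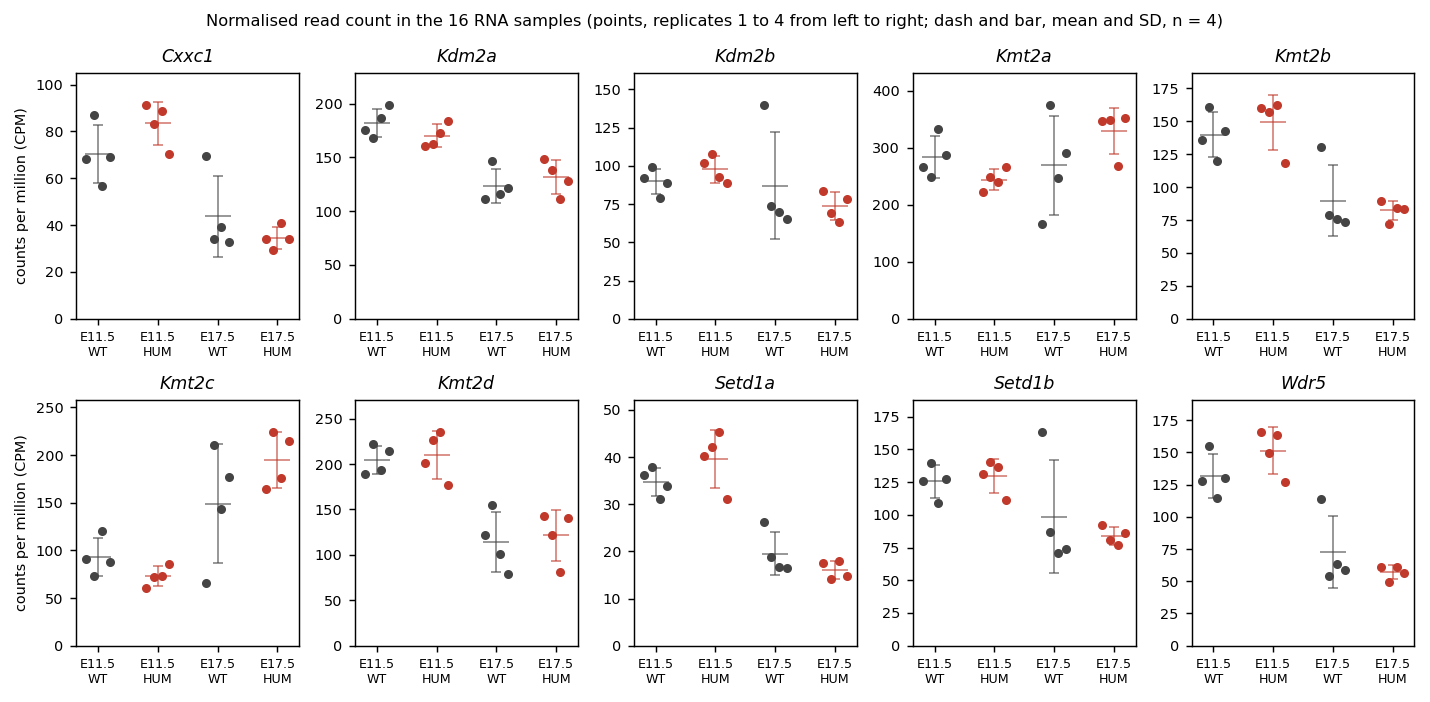
Normalised read count of each of the 10 genes in CPM (read counts scaled to library size, y axis from 0) in the 16 RNA samples, with wild type (WT) in grey and humanized (HUM) in red; points are replicates 1 to 4 from left to right, dashes are means and bars are SD (n = 4). Setd1a and Wdr5 are lower at E17.5 in both genotypes, Kmt2c is higher at E17.5 in all but 1 sample, and the first E17.5 WT point lies away from the other 3 for Kdm2b, Kmt2b, Setd1b, Wdr5 and Cxxc1.

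Between E11.5 and E17.5 most of these genes fell, while Kmt2c and, except with offsets for exonic length, Kmt2a rose in humanized samples. With offsets for GC content, Kmt2d and Setd1b were no longer called as lower in humanized samples, and Kdm2b turned above 0. In wild type samples edgeR's quasi-likelihood test called 6 of the 10 members (adjusted p under 0.05), all lower at E17.5, where 55.7% of the 18583 genes tested were called in either direction, with 26.7% lower and 29% higher. In humanized samples, which share no sample with the wild type comparison, all 10 were called, 8 lower and 2 higher, where 77.7% of 18781 genes were called, 39.5% lower and 38.2% higher. The median log2 difference of the members was -0.61 in wild type and -0.72 in humanized samples, against -0.01 and -0.04 over all genes tested. In tissue, fewer cells of a type and less RNA per cell cannot be told apart. All 7 neural progenitor markers fell in both genotypes (summed level 4167 to 4820 CPM at E11.5 and 568 to 839 CPM at E17.5), 5 of 6 neuron markers rose (1267 to 2006 CPM at E11.5 and 5260 to 6457 CPM at E17.5) and 4 of 4 astrocyte markers rose (5.59 to 8.07 CPM and 88.9 to 183 CPM). The part of this change in cell types in the members' results was not tested.

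Among the CpG readers, Cxxc1 was at 91.2, 83.0, 88.9 and 70.5 CPM in the 4 humanized samples at E11.5 and at 33.9, 29.3, 40.7 and 34.2 CPM at E17.5. These groups did not overlap, and the log2 difference was -1.28 (SE 0.12, adjusted p = 1.24e-06). In the wild type Cxxc1 was at 68.2, 86.8, 56.7 and 68.9 CPM at E11.5 and at 69.5, 34.0, 39.1 and 32.8 CPM at E17.5. Here only E17.5 replicate 1 reached into the E11.5 range, and the difference was -0.69 (SE 0.26, adjusted p = 0.043), or -1.01 without that replicate. Leaving out any sample but E11.5 replicate 3 or E17.5 replicate 1 ended this call (largest adjusted p 0.12), as did DESeq2 (adjusted p = 0.0555).

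Kdm2b, the reader that links CpG islands to Polycomb, fell in humanized samples, from 102, 108, 92.8 and 88.5 CPM to 83.5, 69.5, 63.1 and 78.2 CPM (log2 difference -0.42, SE 0.12, adjusted p = 0.00581), but with offsets for GC content the difference was 0.10 (adjusted p = 0.389). In wild type samples it was at 92.1, 99.1, 79.3 and 88.9 CPM at E11.5 and 139.7, 73.5, 69.8 and 65.5 CPM at E17.5. The first of these E17.5 values was the highest of all 16 samples, the other 3 lay below every E11.5 value, and the difference of -0.05 (SE 0.25, adjusted p = 0.87) became -0.39 and was called without that replicate (adjusted p = 0.0104). Kdm2a, its paralog, fell in both genotypes: from 168 to 198 CPM to 111 to 146 CPM in wild type (-0.57, SE 0.16, adjusted p = 0.0123) and from 161 to 184 CPM to 111 to 149 CPM in humanized samples (-0.38, SE 0.12, adjusted p = 0.0114). Both stages were separate in both genotypes for Kdm2a, and its value moved only from -0.63 to -0.52 when wild type replicates were left out in turn.

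The MLL paralogs Kmt2a and Kmt2b, which both carry a ZF-CxxC domain, moved in opposite directions in humanized samples, except that with offsets for exonic length Kmt2a turned to -0.69 as well. Kmt2b fell in both genotypes, with a log2 difference of -0.65 in wild type (SE 0.22, adjusted p = 0.026) and of -0.87 in humanized samples (SE 0.12, adjusted p = 2.96e-05). Its levels were 136, 161, 119.6 and 143 CPM at E11.5 and 131, 78.7, 76.1 and 73.7 CPM at E17.5 in wild type, where replicate 1 at E17.5 again lay within the E11.5 range and the difference was -0.90 without it. Leaving out E11.5 replicate 2 or 4 or E17.5 replicate 2, 3 or 4 ended the wild type call (largest adjusted p 0.080). Kmt2a was at 223, 249.6, 239.9 and 266 CPM at E11.5 and 348, 349, 268 and 352 CPM at E17.5 in humanized samples. Every E17.5 value was above every E11.5 value, with a log2 difference of 0.42 (SE 0.12, adjusted p = 0.00811). With all 16 samples in one fit this call and that of Kdm2b in humanized samples were lost (adjusted p = 0.0508 and 0.0756). Kmt2a in wild type samples ranged from 249 to 333 CPM at E11.5 and from 167 to 375 CPM at E17.5, and the difference was -0.09 (95% confidence interval -0.56 to 0.39, adjusted p = 0.78). This difference ran from -0.25 to 0.077 as wild type replicates were left out in turn.

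Kmt2c and Kmt2d, the enhancer methyltransferases, went opposite ways in humanized samples. Kmt2c was at 60.6, 71.7, 73.4 and 86.1 CPM at E11.5 and 165, 224, 176 and 215 CPM at E17.5, a rise of 1.404 on the log2 scale (SE 0.15, adjusted p = 3.09e-06), the only rise beside that of Kmt2a. The wild type samples had 91.2, 72.7, 121 and 87.7 CPM at E11.5 and 65.4, 210.2, 143 and 177 CPM at E17.5. Of these E17.5 values only that of replicate 1 was not above the E11.5 range, and the difference of 0.67 (SE 0.32, adjusted p = 0.103) became 0.91 without it (adjusted p = 0.000438). Kmt2d fell in both genotypes, from 189 to 222 CPM to 78.4 to 155 CPM in wild type (-0.85, SE 0.21, adjusted p = 0.00629) and from 177 to 235 CPM to 81.2 to 142 CPM in humanized samples (-0.80, SE 0.17, adjusted p = 0.00101), with no overlap of the stages in either. With offsets for GC content Kmt2d was no longer called in humanized samples.

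Of the SET1 enzymes, Setd1a was the less abundant and fell in both genotypes. It was at 36.3, 37.9, 31.1 and 33.8 CPM at E11.5 and 26.3, 18.7, 16.7 and 16.4 CPM at E17.5 in wild type (-0.84, SE 0.19, adjusted p = 0.00398), and at 40.2, 42.1, 45.3 and 31.03 CPM and 17.498, 14.2, 18.05 and 14.7 CPM in humanized samples (-1.31, SE 0.14, adjusted p = 2.99e-06). The stages did not overlap in either genotype. As wild type replicates were left out in turn, the Setd1a difference there ran from -1.03 to -0.76. Setd1b fell in humanized samples, from 111 to 140.4 CPM to 76.6 to 92.0 CPM (-0.64, SE 0.11, adjusted p = 0.000163). With offsets for GC content Setd1b was no longer called there. In wild type it ranged from 109 to 139.7 CPM at E11.5 and was at 163, 87.0, 70.9 and 73.7 CPM at E17.5, and the difference of -0.36 (SE 0.27, adjusted p = 0.28) became -0.72 without E17.5 replicate 1 (adjusted p = 0.000254).

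Wdr5, the scaffold that all these methyltransferases share, had the largest fall among the members in both genotypes, by a small margin. In wild type Wdr5 lay less than its SE from Kmt2d (-0.85) and Setd1a (-0.84), as it did from Setd1a (-1.31) in humanized samples. It was at 166, 149.6, 164 and 127 CPM at E11.5 and 61.2, 49.7, 61.1 and 56.6 CPM at E17.5 in humanized samples (-1.42, SE 0.12, adjusted p = 3.19e-07), and at 127, 155, 114 and 130.4 CPM and 114, 54.2, 63.1 and 58.5 CPM in wild type (-0.87, SE 0.25, adjusted p = 0.0121). The lowest E11.5 wild type value was just above the highest E17.5 value, that of replicate 1, without which the difference was -1.19. Over both genotypes, the stages were separate and lower at E17.5 for 4 members in wild type (Wdr5, Setd1a, Kmt2d and Kdm2a, where this held for 25.1% of genes) and for 8 in humanized samples (36.7% of genes), and separate and higher for none in wild type (25.2%) and for Kmt2a and Kmt2c in humanized samples (35.1%). Without E17.5 wild type replicate 1, 9 of the 10 members were called in wild type, all but Kmt2a, where 72.3% of 19351 genes were called. The stage difference itself was not called as different between the genotypes for any member or gene (20234 genes tested with edgeR, 1610 at an unadjusted p under 0.05, none of them a member, and 0 by DESeq2). Without E17.5 wild type replicate 1 it was called for none of 20722 genes either, and the median of the members' stage differences, humanized minus wild type, turned from -0.25 to 0.05.

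**Figure D2:**
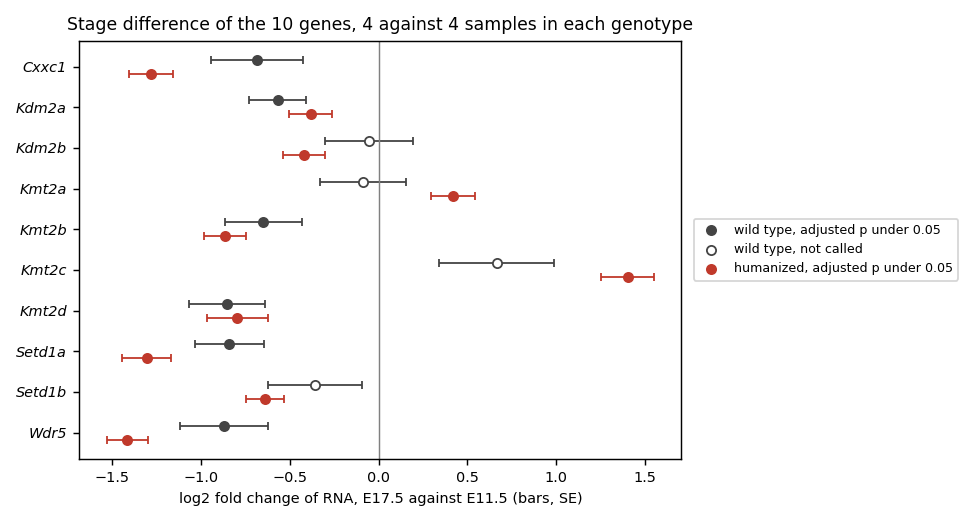
Log2 fold change of RNA at E17.5 against E11.5 for the 10 genes (x axis, bars are SE) in 4 against 4 samples of each genotype, wild type in grey and humanized in red, with open circles for values that were not called. Of the 20 values, 3 are above 0 (Kmt2c in both genotypes and Kmt2a in humanized samples), and the 4 open circles are Kdm2b, Kmt2a, Kmt2c and Setd1b in wild type. With offsets for length Kmt2a in humanized and Kmt2c in wild type samples turn below 0, and with offsets for GC Kdm2b in both genotypes and Kmt2a in wild type turn above 0.

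The balance within paralog pairs is given as a description, with no test. The log2 ratio of Kmt2c to Kmt2d, from RPKM in the same sample, was -1.33 ± 0.39 (SD, n = 4) in wild type and -1.70 ± 0.33 in humanized samples at E11.5, and at E17.5 it was 0.14 ± 0.87 in wild type and 0.54 ± 0.39 in humanized samples. Kmt2d was the more abundant per length in all 8 samples at E11.5, and Kmt2c the more abundant in all 4 humanized samples at E17.5. The ratio of Kmt2a to Kmt2b in wild type was 0.11 ± 0.35 at E11.5 against 0.65 ± 0.84 at E17.5, and in humanized samples -0.20 ± 0.31 against 1.079 ± 0.25. Setd1b exceeded Setd1a in every sample, with ratios of 1.44 ± 0.06 at E11.5 against 1.86 ± 0.25 at E17.5 in wild type, and 1.31 ± 0.10 against 1.97 ± 0.21 in humanized samples. In E17.5 wild type replicate 1 the ratios were -1.06 for Kmt2c to Kmt2d, -0.56 for Kmt2a to Kmt2b and 2.22 for Setd1b to Setd1a. The other 3 samples of that group lay at 0.27 to 1.008, 0.78 to 1.34 and 1.67 to 1.81.

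Across all genes the stage difference moved with the GC content of the transcripts. Kmt2c, the largest rise, had the lowest exonic GC content of the 10 genes (43.6%), and Setd1a, Kmt2d, Setd1b and Kmt2b lay between 57.6% and 59.7%. Wdr5 (50.1%) and Kdm2a (47.1%) fell with a lower GC content. The tenth of genes lowest in GC had a median log2 difference of 0.79 in wild type and 1.44 in humanized samples, and the tenth highest -0.06 and -0.50. With offsets for GC content, Kmt2c kept a rise of 0.67 and Kmt2a of 0.73 in humanized samples, while Kmt2d (-0.18) and Setd1b (-0.20) lost their calls and Kdm2b turned to 0.10. Wdr5 (-1.10), Cxxc1 (-0.78), Setd1a (-0.70), Kmt2b (-0.43) and Kdm2a (-0.42) remained called as lower. With these offsets 7 members were called in humanized samples, where 77.2% of genes were. With the same offsets 7 members were also called in wild type samples, all lower and including Setd1b (-0.47), where 65.9% of genes were called. Offsets for exonic length moved Kmt2a in humanized samples from 0.42 to -0.69, and Kmt2c from 1.404 to 0.30, and turned Kmt2c in wild type samples to -0.13.

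**Figure D3:**
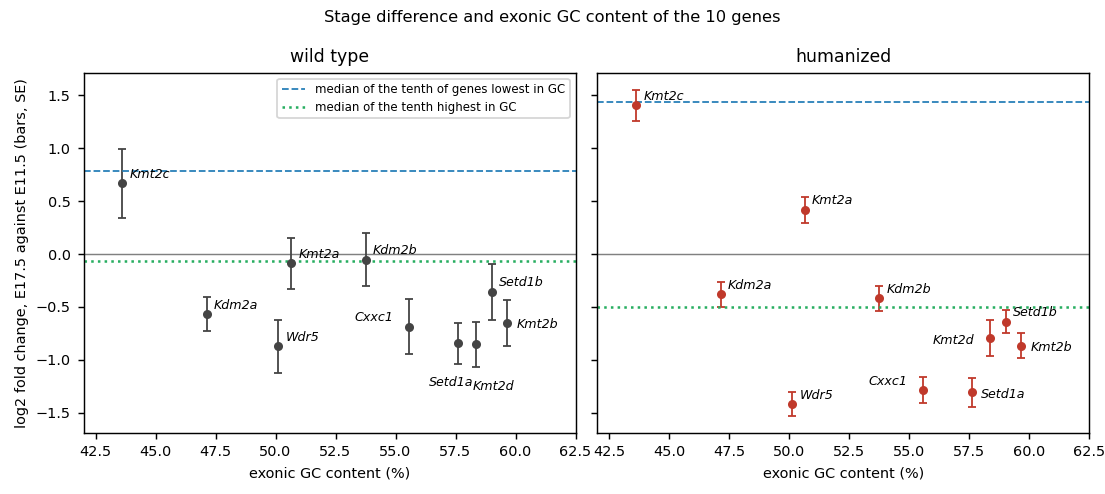
Log2 fold change of RNA at E17.5 against E11.5 (y axis, bars are SE) against exonic GC content in percent (x axis) for the 10 genes, in wild type (left) and humanized (right) samples; lines mark the median of the tenth of genes lowest (dashed) and highest (dotted) in GC. Kmt2c lies at the left and near the dashed line in both panels. Cxxc1, Kmt2b, Kmt2d, Setd1a, Setd1b and Wdr5 lie below the dotted line in both panels, and Kdm2a and Kmt2a do so in wild type only.

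Genes that work with the members moved in both directions. Of 12 tested COMPASS subunit genes, 1 rose and 6 fell in wild type and 3 rose and 8 fell in humanized samples. The largest changes in wild type were in Bod1l, a SET1 complex subunit (1.80, SE 0.30, adjusted p = 0.000494), and Hcfc1, a host cell factor that joins SET1 and MLL complexes (-1.27, SE 0.25, adjusted p = 0.0015). Of 6 H3K4 demethylase genes, 2 fell and none rose in wild type, and 3 fell and 2 rose in humanized samples, with Kdm5c lowest in wild type (-0.92, SE 0.20, adjusted p = 0.00258). Of 7 other ZF-CxxC genes, 2 rose and 2 fell in wild type and 2 rose and 5 fell in humanized samples, where Tet1 rose by 1.26 (SE 0.39, adjusted p = 0.0185) and Tet3 fell (-1.16, SE 0.15, adjusted p = 8.72e-05) in wild type, both being dioxygenases that oxidise 5-methylcytosine. Of 9 PRC1.1 partners of KDM2B, 1 rose and 2 fell in wild type and 1 rose and 3 fell in humanized samples. Among them Rybp rose (0.94, SE 0.29, adjusted p = 0.0171) and Ring1, an E3 ligase of histone H2A, fell (-1.37, SE 0.22, adjusted p = 0.000428). Of 6 other SET and SMYD genes, 3 rose in wild type and 4 in humanized samples and none fell, with Smyd1 at 2.72 in wild type (SE 0.36, adjusted p = 9.43e-05). Of 12 tested H3K4me3 reader genes, 1 rose (Spin1, 0.63, SE 0.19, adjusted p = 0.0159) and 4 fell in wild type, the largest fall being in Ing5 (-1.25, SE 0.17, adjusted p = 0.000106), and 2 rose and 8 fell in humanized samples. The shares of all genes given above are the background for these counts, and no list was tested as a set.

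The genes whose RNA pattern over the 16 samples was most like a member's were named for Cxxc1 and Kmt2b. By the root-mean-square difference of log2 CPM after each gene was centred on its own mean, the nearest to Cxxc1 among 14826 protein-coding genes were Sh3gl1 (0.056), Txn2 (0.067) and Drg2 (0.068), where the median over genes was 0.76. The nearest to Kmt2b were Ciz1 (0.075), Mlxip (0.075) and Hira (0.077), with a median of 0.67. The points share the library effects described above.

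Between genotypes, no member and no gene was called at either stage. At E11.5 (17816 genes tested, 0% called by edgeR, 1058 or 5.94% at an unadjusted p under 0.05, 2 by DESeq2), the members' log2 differences, humanized against wild type, ran from -0.38 to 0.22. The lowest were Kmt2c, with humanized samples at 60.6 to 86.1 CPM and wild type at 72.7 to 121 CPM (-0.38, 95% confidence interval -0.70 to -0.06, adjusted p = 0.58), and Kmt2a (-0.24, 95% confidence interval -0.45 to -0.03, adjusted p = 0.58), and these were the 2 members at an unadjusted p under 0.05. Their groups overlapped. At E17.5 (18763 genes tested, 0% called, 207 or 1.1% at an unadjusted p under 0.05, 1 by DESeq2), the differences ran from -0.35 to 0.39, and none of the members was at an unadjusted p under 0.05. The direction changed without E17.5 wild type replicate 1: the members' median was -0.19 with 4 members above 0, and 0.09 with 7 above 0 without it. GC offsets (median 0.07) and a covariate for the level of Y-linked genes (0.10) also gave 7 above 0, and no member was called under any of these. With all samples, the 95% confidence intervals at E17.5 reached from -0.86 for Cxxc1 to 0.98 for Kmt2c.

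In chromatin, all 10 promoters carried the marks of active promoters at both stages. A peak was counted where it had at least 1 bp within 1 kb of the gene start, and its height was the fold enrichment over local background given by the peak caller. The shares beside the members are over protein-coding promoters whether expressed or not, while every member was expressed. Shares over expressed genes alone were not taken. H3K4me3 peaks were at 10 of 10 members in every list, against 60.5% (E11.5) or 60.6% (E17.5) of 20783 protein-coding promoters, with 62% and 62.4% in at least 1 list. H3K27ac peaks were also at 10 of 10 in every list, against 44.1% and 51.6% of promoters (50.8% and 59% in at least 1 list). No member had an H3K27me3 peak in every list, against 18.3% and 17.2%, and 1 member at each stage had one in at least 1 list, against 25.4% and 26.9%. At the gene start, weak H3K27me3 peaks lay at Kdm2a in 3 of 4 lists at E11.5 (fold enrichment 2.47 to 2.69) and at Kdm2b in 4 of 6 lists at E17.5 (2.57 to 2.84). Within 1 kb of a Kdm2b coding start 1290 bp inside the gene the H3K27me3 peak was in 6 of 6 lists at E17.5 (3.37 to 4.82) and in 0 of 4 at E11.5. CTCF peaks at E17.5 were at 5 of 10 members in every list, against 27.6% of promoters: Kmt2b (25.1 to 39.4), Cxxc1 (19.3 to 37.7), Wdr5 (12.8 to 32.9), Kmt2d (5.10 to 10.7) and Setd1b (6.43 to 10.4). Kmt2a had a CTCF peak in 5 of 6 lists and Setd1a in 2 of 6, so 7 members had one in at least 1 list, against 47.9% of promoters, and Kdm2a, Kdm2b and Kmt2c had none at the gene start.

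**Figure D4:**
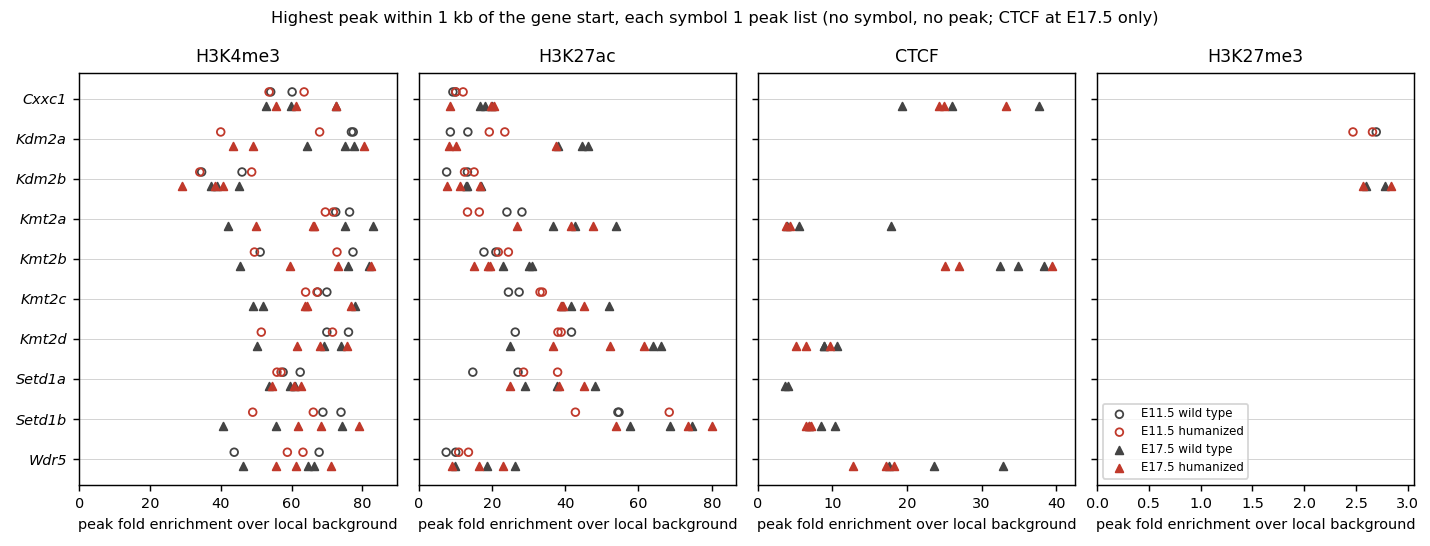
Fold enrichment over local background (x axis, linear, from 0) of the highest peak within 1 kb of each gene start for H3K4me3, H3K27ac, CTCF and H3K27me3; each symbol is 1 peak list, open circles E11.5 and triangles E17.5, wild type in grey and humanized in red, and a missing symbol is a list with no peak. H3K4me3 lies between 29.1 and 83.1 for all 10 genes, Setd1b has the highest H3K27ac (42.8 to 80.2), and CTCF is above 12 at Cxxc1, Kmt2b and Wdr5 in all 6 lists.

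Setd1b stood out in H3K27ac and in width. Its H3K27ac peak was at 54.4 and 54.7 in the wild type and 42.8 and 68.4 in the humanized lists at E11.5, and at 74.7, 57.7 and 68.6 in wild type and 80.2, 73.4 and 54.0 in humanized lists at E17.5. These values placed it between percentiles 97.5 and 99.97 of promoters with a peak. The peak was 7871 to 8454 bp wide at E11.5 and 10867 to 12925 bp at E17.5, and its H3K4me3 peak was 11228 to 14830 bp wide, where the median promoter had 1035 and then 1645 bp of H3K27ac, and 2280 and then 2253 bp of H3K4me3. The long noncoding RNA AI480526 starts 1283 bp from Setd1b on the opposite strand, so peaks this wide may take in both starts. At the other end of H3K27ac height, Cxxc1, Wdr5 and Kdm2b were at 7.51 to 15.1 in every list at E11.5. Also in that range were Kdm2a in the wild type lists (8.65 and 13.4), Kmt2a in humanized replicate 2 (13.3) and Setd1a in wild type replicate 2 (14.8).

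The H3K27ac peak of Kmt2c widened from 1043 to 1125 bp at E11.5 to 3038 to 3306 bp at E17.5. Wider H3K27ac peaks at E17.5 with no overlap of the stages were found at 5 members (Cxxc1, Kmt2a, Kmt2c, Setd1b and Wdr5), against 56.7% of promoters. Kdm2b went the other way: its H3K27ac width was 2254 to 3388 bp at E11.5 and 1865 to 2698 bp at E17.5, with overlap, where its log2 ratio of median widths of -0.49 was at percentile 1.71. H3K4me3 peaks narrowed without overlap at Kdm2b (4927 to 6442 bp, then 3273 to 4118 bp) and Kmt2b (3587 to 3960 bp, then 2824 to 3448 bp), where this held for 21.2% of promoters.

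Relative to all promoters, H3K27ac at 3 of the 10 members was called lower at E17.5, near the 24.2% of all promoters called lower. Each list was centred on its median, since the median promoter had a fold enrichment of 10.05 to 11.7 at E11.5 and 13.3 to 21.5 at E17.5, and limma was fitted to log2 fold enrichment of 8852 promoters, of which 40.8% were called between stages (24.2% lower and 16.6% higher). Kmt2b was at 21.1 and 17.8 in wild type and 24.5 and 21.7 in humanized lists at E11.5, and at 23.1, 30.2 and 30.8 in wild type and 19.1, 19.3 and 15.2 in humanized lists at E17.5. Its centred log2 difference was -0.80 (SE 0.19, adjusted p = 0.00165), and its centred values did not overlap between stages, as for 16.6% of promoters. Kdm2b (-0.76, SE 0.21, adjusted p = 0.0046) and Setd1b (-0.56, SE 0.20, adjusted p = 0.025) were also called, and Kmt2a was the only member with a value above 0 (0.17, SE 0.20, adjusted p = 0.53). Without centring, where the median of the promoters' differences was 0.77 on the log2 scale, the values of all but Kmt2a turned from below to above 0, to 0.07 for Kmt2b, 0.11 for Kdm2b and 0.31 for Setd1b, so the falls are relative to other promoters. Centring took off more than this median, so a centred 0 lay above the median promoter (Kdm2a, at -0.14, was at percentile 47.1). Among all promoters tested, the centred values of Kmt2b, Kdm2b and Setd1b were at percentiles 12.1, 13.7 and 22.2. Only 2 members, Kmt2b and Setd1b, stayed called when the highest peak at any coding start was used, since Kdm2b then moved to -0.25 (adjusted p = 0.318), and without E11.5 wild type replicate 1 only Kmt2b did. The call of Setd1b was also lost without wild type replicate 2 at either stage or E11.5 humanized replicate 2 (largest adjusted p 0.161), and with the replicate block (-0.54, adjusted p = 0.0618).

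For H3K4me3, no member was called between stages among 12388 promoters by limma, of which 15.1% were called (10.3% higher and 4.79% lower), 3322 promoters being at an unadjusted p under 0.05. All 10 centred values were below 0, from -0.42 to -0.04, where 4 turned above 0 without centring. Kmt2a had the lowest (-0.42, SE 0.18, adjusted p = 0.151), with 76.4 and 72.5 in wild type and 71.8 and 69.5 in humanized lists at E11.5 and 42.1, 83.1 and 75.0 in wild type and 65.9, 66.4 and 50.0 in humanized lists at E17.5. Centred values were separate and lower at E17.5 for Kmt2a and Kmt2c, as for 6.79% of promoters.

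Kdm2b has a coding start deep in the gene, and this inner start and the outer gene start differed in peak height and in the marks present. The inner coding start lies at chr5:123038418, 89468 bp inside the outer gene start at chr5:123127886 on the minus strand, and its window held 50 CpGs (GC content 81.7%, ratio 1.02) where the outer start held 9. Coding starts 485 and 1290 bp inside the outer start held 21 and 17. H3K4me3 at the inner start was at 57.6 to 66.7 at E11.5 and 42.9 to 73.1 at E17.5, against 34.0 to 48.7 and 29.1 to 45.1 at the outer start. H3K27ac was at 18.9 to 20.8 and then 25.04 to 38.2, against 7.64 to 15.1 and 7.84 to 17.1. The inner start was the higher in each of the 20 lists of these 2 marks. The outer start had the wider H3K4me3 peak in every list. Widths there were 4927 to 6442 bp at E11.5 and 3273 to 4118 bp at E17.5, against 2700 to 3235 bp and 2740 to 3241 bp. CTCF was present at the inner start in 6 of 6 lists (4.96 to 7.57) and at the outer start in none, although every list had a CTCF peak (2.63 to 7.96) within 1 kb of the coding start 485 bp inside the gene. H3K27me3 at E17.5 was present at the outer start in 4 of 6 lists and at the inner start in none. The count files hold 1 value per gene, so RNA from the 2 starts could not be separated.

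**Figure D5:**
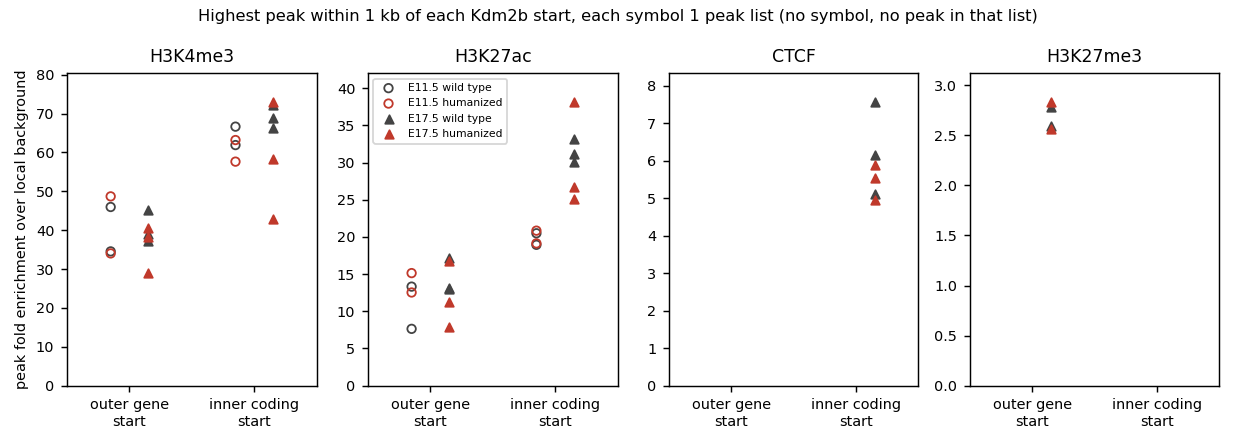
Fold enrichment over local background (y axis, linear, from 0) of the highest peak within 1 kb of the outer gene start and of the inner coding start of Kdm2b for 4 marks; each symbol is 1 peak list, open circles E11.5 and triangles E17.5, wild type in grey and humanized in red. H3K27ac and H3K4me3 are higher at the inner start, CTCF peaks lie within 1 kb of the inner start only, and H3K27me3 peaks within 1 kb of the outer start only.

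Between genotypes, no member and no promoter was called for H3K4me3 (12388 promoters), H3K27ac (8852) or CTCF (5728, including 5 members) at either stage measured, or 0% by limma, with 536 and 656, 450 and 404, and 288 promoters at an unadjusted p under 0.05. The 2 members with the largest differences were in H3K27ac. Kmt2a at E11.5 was at 16.6 and 13.3 in the humanized and 24.1 and 28.2 in the wild type lists (-1.04, SE 0.32, adjusted p = 0.87). Kdm2a at E17.5 was at 37.5, 10.3 and 8.38 in the humanized and 46.3, 38.0 and 44.5 in the wild type lists (-1.24, SE 0.33, adjusted p = 0.91). In humanized replicates 2 and 3 the Kdm2a region was called as 2 peaks, of which only the weaker lay within 1 kb of the gene start. Around the coding start 1205 bp inside the gene the same lists had 42.6 and 31.8, in a range of 31.8 to 46.3 over the 6 lists, and with the highest peak at any coding start the difference was 0.08. The H3K4me3 peak of Kdm2a was also divided in humanized replicates 2 and 3, which are other libraries, with 49.2 and 43.4 at the gene start and 71.3 and 70.4 at the inner start.

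The members lie on chromosomes 2 (Wdr5), 5 (Kdm2b, Kmt2c and Setd1b), 7 (Kmt2b and Setd1a), 9 (Kmt2a), 15 (Kmt2d), 18 (Cxxc1) and 19 (Kdm2a). In GRCm39, Kmt2c spans chr5:25476796-25703810 on the minus strand and Wdr5 chr2:27405161-27426560 on the plus strand. Neighbouring genes bear on some of these values. Kdm2b and Setd1b start 152370 bp apart on chromosome 5. Cxxc1 and the oppositely oriented Ska1 start 65 bp apart, so peaks there cannot be assigned to one of them, and a long noncoding RNA starts within 1 kb of Kdm2b, Kmt2b, Kmt2c and Wdr5. Opposite strand genes overlap all members but Cxxc1, and reads in column 2 of the count files were counted without strand. Same strand genes also overlap Kdm2b, Kmt2a, Kmt2c and Setd1a, and at Setd1a this is the protein-coding gene Gm49388. Counting by strand cannot separate these, and their part in the members' counts was not tested. The counts of the strand column, which held 96.0% to 96.5% of stranded counts, gave 6 and 10 members called between stages in wild type and humanized samples, as the unstranded counts did.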

How the data were processed

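Polyadenylated RNA from 16 pools of diencephalon was sequenced with paired reads by the authors, who aligned them with STAR 2.7.9a and deposited unnormalised read counts per gene. ChIP-seq reads were aligned by the authors with Bowtie2 2.4.2 to mm39, into which the human sequence had been placed for humanized samples, and peaks were called for each sample with MACS2 2.2.7.1. The deposited peak lists give fold enrichment over local background as a ratio and q as −log10, and the settings behind the H3K27me3 lists are not given in the sources used here. The H3K27ac antibody also binds H2BK5ac, per the study's methods.

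Column 2 of the count files, which is not split by strand, was used. Of 56923 gene IDs, 98.8% matched GENCODE release 39 of GRCm39, which gave the gene starts, exonic lengths, GC content and neighbouring genes. The authors counted reads on release 31, so some neighbours named here may be absent from it. Counts were filtered with filterByExpr, scaled by TMM and tested with the quasi-likelihood test of edgeR 4.0.16, in R 4.3.3, on the samples of each comparison, with Benjamini-Hochberg adjustment over all genes tested and a threshold of 0.05. Intervals of 95% were taken as normal around the estimate, which makes them narrower than the quasi-likelihood test implies. For Kmt2c between stages in wild type the interval was 0.03 to 1.30, where that test gave an unadjusted p of 0.065. log2 fold enrichment of the highest peak within 1 kb of the gene start, centred on the list's median, was tested with limma 3.58.1 over promoters with a peak in every list, and chromosome 13 and the Y chromosome were left out. Each list was called separately, so a peak that is absent has no value. Levels between genes were compared as RPKM over exonic length.

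Alternatives were DESeq2 1.42.0, its size factors, no filter, the strand column, offsets for GC content or length in 20 bins, a replicate block, 1 fit of all samples, other peak windows and each replicate left out. The fits without E17.5 wild type replicate 1 that also use GC offsets, and those with any coding start, were chosen after seeing the data. Scripts were tested on simulated data. The members and gene lists were chosen with earlier results of these data known. Genes were named because they are members, or as the members of each companion list with the largest called change in each direction, and the patterns most like a member's were taken for Cxxc1 and Kmt2b. Replicate numbers were given by the labels but do not mark a shared litter. Input libraries were not analysed here.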

Additional observations from a re-analysis of the deposited data

Results flagged for a closer look

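Of 40 tests of single values within groups of 4 samples, 6 had a highest or lowest sample whose gap to its nearest neighbour, as a share of the group's range, was above Dixon's 95% critical value, where chance flags about 1 in 20 groups. Of these, 4 were the same library, wild type replicate 1 at E17.5, which was the highest of its group for Cxxc1 (gap share 0.830), Kdm2b (0.892), Kmt2b (0.912) and Wdr5 (0.850). The library is the one in which genes high in GC content stood 1.80 log2 units above genes low in GC, relative to its group, and the part of this in the members' values was not tested. Kmt2a in humanized replicate 3 at E17.5 was the lowest of its group (gap share 0.948), as was Kmt2b in humanized replicate 4 at E11.5 (0.881).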

How the results depend on the processing

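Under the alternatives to the stage comparison of RNA, some differences near 0 changed direction, and the cause was not tested. In wild type samples Kdm2b turned to 0.013 in the strand column and 0.033 with GC offsets, Kmt2a to 0.084 with GC offsets and 0.31 with GC offsets and no E17.5 replicate 1, and Kmt2c to -0.13 with length offsets. In humanized samples Kdm2b turned to 0.10 with GC offsets and Kmt2a to -0.69 with length offsets. Leaving out 1 replicate gave 4 to 9 members and 9147 to 13994 genes called in wild type (Kdm2b -0.39 to 0.065, Kmt2a -0.25 to 0.077), and 10 members and 14217 to 15103 genes in humanized samples. Between genotypes the number of genes called became 2 at E11.5 and 1 at E17.5 with DESeq2, and 1 at E11.5 with all 16 samples in one fit.

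For promoter peaks without centring, H3K4me3 stage values turned to 0.10 for Cxxc1, 0.15 for Kmt2b, 0.0096 for Setd1a and 0.064 for Wdr5, and with any coding start Kdm2a turned to 0.0066. H3K27ac values without centring turned to 0.68 for Cxxc1, 0.73 for Kdm2a, 0.11 for Kdm2b, 0.072 for Kmt2b, 0.53 for Kmt2c, 0.43 for Kmt2d, 0.49 for Setd1a, 0.31 for Setd1b and 0.63 for Wdr5, with 5 members and 6140 promoters called. Leaving out 1 list gave 1 to 3 members and 2924 to 3563 promoters for H3K27ac (Kdm2a -0.42 to 0.018), and for H3K4me3 Kmt2b ranged from -0.20 to 0.11 and Wdr5 from -0.30 to 0.030. Between genotypes, leaving out 1 list gave 0 to 1 promoters for H3K4me3 and H3K27ac at E11.5 and for CTCF, and 0 to 2 promoters and 0 to 1 members for H3K27ac at E17.5, the member being Kdm2a without humanized replicate 1 (range -1.79 to -0.92). Kdm2a turned to 0.084 there with any coding start. CTCF promoters called became 2 in the 500 bp window and 1 with any coding start. H3K27me3 at E17.5 was present in every list at 1 member with any coding start and at 0 to 1 at E11.5 when a list was left out, and CTCF peaks covered the start itself in every list at 2 members.

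The labels do not tie replicate numbers to a shared litter, and in no pair of RNA groups did all 4 same-numbered pairs deviate together with a correlation over 0.1. At E17.5 the correlations between genotypes were all positive (0.084 to 0.53), 3 of 4 were over 0.1, and 5 of 8 samples correlated best with their own number, a hint from the data and not the design. There the block raised the genes at an unadjusted p under 0.05 from 207 to 717, with 1 member among them and 0 genes called. Between genotypes at E11.5 and between stages in wild type and in humanized samples, 0, 2 and 3 of 8 samples correlated best with their own number (correlations -0.54 to 0.40). With the replicate block, 6 members and 9466 genes were called in wild type and 10 and 14454 in humanized samples, H3K27ac had 2 members and 3200 promoters called, with Setd1b at -0.54 (adjusted p = 0.0618), and Kmt2b turned to 0.12 for H3K4me3.

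Each group holds 2 to 4 pools, which limits the precision of every comparison. Fold enrichment is read only where a peak was called, so weak signal has no value.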

Other observations

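Several other coding starts of the members lay in windows richer in CpG than the gene start. At Wdr5 the coding starts 128, 147 and 181 bp inside the gene had 44, 46 and 48 CpGs in 300 bp, where the gene start had 22, and a further start 1438 bp inside had 1. At Kdm2a the starts 1035, 1081 and 1205 bp inside had 49, 48 and 40 CpGs, where the gene start had 39, with observed over expected ratios of 1.28, 1.26 and 1.31 against 0.908. At Kmt2b the start 272 bp inside had 35 CpGs against 22. At Setd1a the start 646 bp inside had 31 against 19, and at Setd1b the start 764 bp inside had 23 against 19. At Kdm2b the starts 485 and 1290 bp inside had 21 and 17 CpGs against 9. These windows overlap one another in part, and the starts were looked at after the values at the gene starts had been seen.

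The summed level of 4 Y-linked genes ranged from 0.0 to 283 CPM between RNA pools. With this level as a covariate, no member was called between genotypes at either stage.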
